A study of Mus musculus with 5 samples.

Results

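The levels of 10 antioxidant and glutathione genes were compared between the cancer cells of 2 lung libraries taken at day 16. The genes were taken by name from the 23771 genes of the deposited gene table, and all 10 were found: Slc7a11, Gclc, Gclm, Gpx1, Gpx4, Txnrd1, Srxn1, Prdx1, Nqo1 and Hmox1. The study asked why breast cancer cells grow more aggressively in lungs that were primed by factors from a primary tumor. Single-cell RNA sequencing counts molecules by unique molecular identifiers (UMIs), and the level of a gene is given here as mean CP10k, its UMIs per 10000 UMIs of a cell averaged over all cancer cells of a library. The share of cancer cells with at least 1 UMI of the gene is given beside it.

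Both libraries came from lungs of female BALB/c mice aged 11 weeks that carried metastases of 4T1, a line of mammary carcinoma cells from the same strain. A lentiviral vector had given these cells CD90.1, a surface reporter by which the authors recognized cancer cells. Mice of the TSF group first received tumor-secreted factors (TSF), medium conditioned by resected tumor pieces and pooled over 3 tumors. Mice of the CM group received control medium (CM), incubated in the same way without tumor. In both groups 200 µL was given intravenously 3 times per week for 3 weeks, 25000 CD90.1-expressing 4T1 cells were then injected intravenously, and the lungs were taken 16 days later. Lung cells of 3 mice were pooled for each library, so each group is 1 library, differences between mice cannot be seen, and no test between the groups was possible. Levels at day 11 were not analysed here.

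Glutathione is a small thiol made from glutamate, cysteine and glycine, and with thioredoxin it supplies most of the reducing power that cells spend on peroxides. Cystine import, glutamate-cysteine ligation, peroxide reduction and the recycling of oxidized carriers are separate steps, each with its own enzymes. Many of these genes are activated by the transcription factor NRF2 (Nfe2l2), which KEAP1 marks for degradation until electrophiles or oxidants modify KEAP1, and NRF2 binds antioxidant response elements in their regulatory DNA. The same defence helps disseminated tumor cells withstand oxidative stress and limits ferroptosis, a death by lipid peroxidation.

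The NRF2 pathway set among the deposited gene sets holds 8 of these genes, so the promoter windows were searched for the core of the antioxidant response element, TGACNNNGC, on both strands. RefSeq windows on GRCm38.p6, 250 bases before to 50 bases after a start, were found for 8 of the 10 genes, Gclc and Hmox1 being the ones not matched. The core was present in windows of 4 of the 8 genes, against 14.0% of 27025 genes over the whole table. It was in 4 of the 13 windows of the 8 genes, against 12.4% of 32851 windows. The 4 matches are shown because the mean levels of these genes, given below, lay on both sides of equality. The core is in capitals, with 6 bases on either side, read on the strand that carries the motif, which was in each case opposite to the gene.
Gclm: gagagtTGACGGTGCgcccgg
Prdx1: gggggaTGACTCAGCgctttc
Txnrd1: tcagaaTGACAAAGCaaaaat
Srxn1: tcactcTGACCTAGCtgccca
They lie at chr3:122245417-122245437, chr4:116685460-116685480, chr10:82859108-82859128 and chr2:152105546-152105566. The core starts 134, 133 and 92 bases upstream of a RefSeq start of Gclm, Prdx1 and Txnrd1, and 28 bases after that of Srxn1. These starts need not be the gene starts given below from GENCODE, and the Txnrd1 match belongs to 1 of 3 windows, at an alternative start inside the gene. A match of these letters is a description of the window and not evidence of binding.

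The TSF library held 139 cancer cells among 5197 cells and the CM library 29 among 3835. The median depth of a cancer cell was 26615 UMIs in TSF and 27679 in CM, and the totals were 3937739 and 726849 UMIs. Cells under 10000 UMIs made up 14 of 139 in TSF (10.1%, 95% exact Clopper-Pearson interval 5.62 to 16.3%) and 8 of 29 in CM (27.6%, 12.7 to 47.2%). A single UMI in the shallowest cell, with 909 UMIs in TSF and 973 in CM, adds 0.0791 to the TSF mean and 0.354 to the CM mean, while a UMI in a cell of median depth adds 0.00270 and 0.0125. The median percent of mitochondrial UMIs was 1.99 in TSF and 1.72 in CM. The libraries shared 31 cell barcodes, none of them between their cancer cells. The epithelial markers summed to 30.0 CP10k in TSF and 30.3 in CM, with Krt8, Krt18, Krt7, Epcam and Cdh1 all detected in both. Krt8 and Krt18 carried most of these sums. Epcam differed, at 1.28 CP10k in TSF and 0.195 in CM, in 68.3% of TSF cells (59.9 to 76.0%) and 27.6% of CM cells (12.7 to 47.2%), and Cdh1 was found in 25.2% and 6.90%. All intervals cover counting error only. Fewer cells with a transcript and less of it per cell cannot be told apart where a gene gives 0 or 1 UMI in most cells.

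The 10 genes did not differ in one direction. Mean CP10k was higher in TSF for 6 genes and lower for 4, and the median of their log2 ratios, with a pseudocount of 1 CP10k added to each mean, was 0.03. Over the 10201 genes that had a UMI in 10% or more of the cancer cells in TSF or in CM, 40.3% were above 0 and the median was -0.03. Over all 14735 genes with a UMI in any of these cells, 50.4% were above 0 and the median was 0.001. Of the 14735, 2881 were listed at 0 in CM and 362 in TSF. None of the 10 passed 1.5-fold with the pseudocount, against 0.755% of the 10201 genes higher in TSF and 1.95% lower. Slc7a11, Gclc, Srxn1, Nqo1 and Hmox1 could not pass it, as their means, at most 0.310 CP10k, are small beside the pseudocount. On the plain ratio of means, which has no pseudocount, 3 of the 10 were over 1.5-fold higher in TSF and 3 over 1.5-fold lower, against 16% and 29.8% of all genes at that filter. The share of cells was higher in TSF for 6 genes and lower for 4. The 95% intervals of the shares overlapped between the libraries for all 10, while over the 10201 genes they did not overlap for 1.14% higher in TSF and 1.51% lower. Of the 10 genes, 7 reached 10% of cells in both libraries, whereas Slc7a11, Nqo1 and Hmox1 reached it only through the TSF library. In sum the 10 genes took 0.339% of the summed mean CP10k in TSF and 0.317% in CM.

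**Figure D1:**
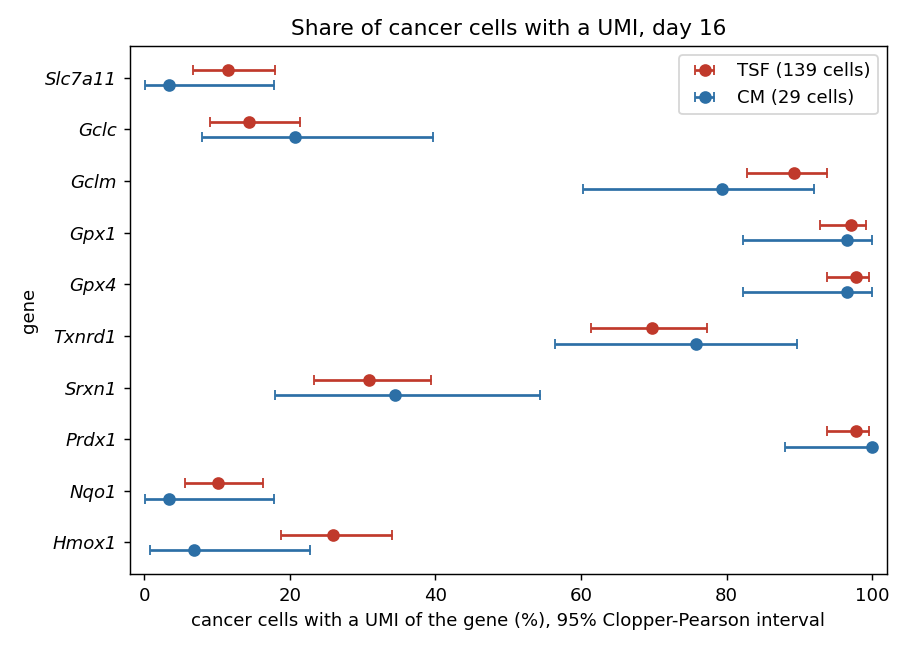
Share of cancer cells with at least 1 UMI of each gene (x axis, percent) for the TSF library (red, 139 cells) and the CM library (blue, 29 cells), with points for the share and bars for its 95% Clopper-Pearson interval. The intervals of the libraries overlap for all 10 genes, and the points lie farthest apart for Hmox1, at 25.9% in TSF and 6.90% in CM.

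Import of cystine and synthesis of glutathione are represented by Slc7a11, Gclc and Gclm, and these did not differ alike. Slc7a11 (ENSMUSG00000027737, chromosome 3, 49892526 to 50443614, minus strand) encodes xCT, the light chain of the exchanger that brings in cystine for glutamate. It had a UMI in 16 of 139 TSF cells (11.5%, 6.72 to 18.0%) and in 1 of 29 CM cells (3.45%, 0.0873 to 17.8%). Its mean CP10k was 0.0475 in TSF and 0.00961 in CM, a plain ratio of 4.95 and a log2 ratio of 0.05 with the pseudocount. The ratio of the shares was 3.34, with a 95% exact conditional interval of 0.519 to 140. This kind of interval takes the cells with a UMI as Poisson counts, and is wider than a ratio of shares requires. The CM value rests on a single cell, so the size of the ratio was not determined at this depth.

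Gclc (ENSMUSG00000032350, chromosome 9, 77754535 to 77794485, plus strand) encodes the catalytic subunit of glutamate-cysteine ligase, which performs the rate-limiting step of glutathione synthesis. It was detected in 20 of 139 TSF cells (14.4%, 9.02 to 21.3%) and 6 of 29 CM cells (20.7%, 7.99 to 39.7%). Mean CP10k was 0.0786 in TSF and 0.126 in CM, 1.60-fold higher in CM. Gclm (ENSMUSG00000028124, chromosome 3, 122245557 to 122270732, plus strand) encodes the modifier subunit, which makes the ligase more active. It was detected in 124 TSF cells (89.2%, 82.8 to 93.8%) and 23 CM cells (79.3%, 60.3 to 92.0%), and its mean CP10k was 1.57 in TSF and 1.08 in CM, a plain ratio of 1.45 and a log2 ratio of 0.30. In the cells with a UMI, mean CP10k of Gclm was 1.76 in TSF and 1.36 in CM.

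**Figure D2:**
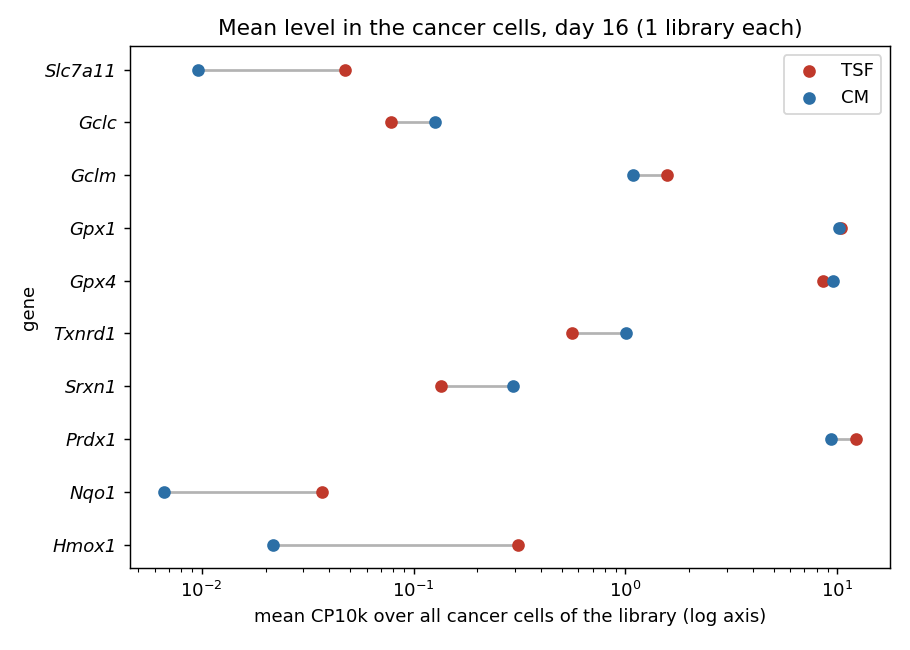
Mean CP10k over all cancer cells (x axis, log scale) of each gene in the TSF library (red) and the CM library (blue), joined by a line. Each point is 1 library and has no error bar. Gpx1, Gpx4 and Prdx1 lie between 8.56 and 12.2 CP10k in both libraries, and the lines are longest for Hmox1, Nqo1 and Slc7a11.

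The glutathione peroxidases Gpx1 and Gpx4 were detected in nearly every cancer cell, and of the 10 genes their plain ratios of means lay nearest to 1. Both are selenoproteins, in which a TGA codon within the coding sequence is read as selenocysteine at the active site. GENCODE M21 marks that codon in Gpx1, Gpx4 and Txnrd1, and it is shown in capitals with the neighboring coding bases, since these are the 3 selenoproteins of the set and 2 of them have levels that barely differed.
Gpx1: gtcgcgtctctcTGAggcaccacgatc
Gpx4: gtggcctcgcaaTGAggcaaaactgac
Txnrd1: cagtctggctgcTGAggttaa
In the transcript with the longest coding sequence it is codon 47 of 201 in Gpx1 (chr9:108339451-108339453), codon 129 of 253 in Gpx4 (chr10:80054737-80054739) and codon 612 of 613 in Txnrd1 (chr10:82896037-82896039), where the last codon and the stop follow it directly.

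Gpx1 (ENSMUSG00000063856, chromosome 9, 108338903 to 108340343, plus strand), the cytosolic peroxidase of hydrogen peroxide, was found in 135 of 139 TSF cells and 28 of 29 CM cells. Its mean CP10k was 10.4 in TSF and 10.2 in CM, a log2 ratio of 0.02. Gpx4 (ENSMUSG00000075706, chromosome 10, 80047166 to 80056439, plus strand) reduces phospholipid peroxides in membranes and is the main brake on ferroptosis. It was found in 136 TSF cells and 28 CM cells, with a mean CP10k of 8.56 in TSF and 9.59 in CM, a log2 ratio of -0.15. Neither level passed 1.5-fold under any measure tried, and the log2 ratio of Gpx1 ranged from 0.01 to 0.11.

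Over the 24 genes that carry a selenocysteine codon in the annotation, a list chosen after the values were seen, 18 passed the 10% filter, of which 7 were above 0 and 11 below, with a median log2 ratio of -0.03. Txnrd1 was the lowest of them and Selenon, an endoplasmic reticulum selenoprotein, the highest (0.536 and 0.304 CP10k, log2 ratio 0.24). None passed 1.5-fold with the pseudocount. On the plain ratio of means 2 of the 18 were over 1.5-fold higher in TSF and 5 lower, against 16% and 29.8% of all genes at that filter. Of all genes at that filter 40.3% lay above 0 with the pseudocount. The selenoprotein synthesis list, 5 genes that make or insert selenocysteine, had 1 gene above 0 and 4 below. Sephs2, which makes the selenium donor, was the lowest at 0.128 CP10k in TSF and 0.281 in CM, and Secisbp2, which binds the insertion element, was the highest at 0.167 and 0.101.

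Of the thioredoxin and peroxiredoxin genes, Prdx1 had the higher mean in the TSF library and Txnrd1 and Srxn1 in the CM library. Prdx1 (ENSMUSG00000028691, chromosome 4, 116685544 to 116700822, plus strand), an abundant peroxiredoxin that reduces hydrogen peroxide with electrons from thioredoxin, was found in 136 of 139 TSF cells and 29 of 29 CM cells. Its mean CP10k was 12.2 in TSF and 9.31 in CM, a plain ratio of 1.31 and a log2 ratio of 0.36. As nearly every cell had a UMI, this was a difference in level and not in the share of cells, which was 97.8% in TSF and 100% in CM.

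Txnrd1 (ENSMUSG00000020250, chromosome 10, 82833951 to 82897712, plus strand) encodes the thioredoxin reductase of the cytosol, which returns thioredoxin to its reduced form with NADPH. It was detected in 97 of 139 TSF cells (69.8%, 61.4 to 77.3%) and 22 of 29 CM cells (75.9%, 56.5 to 89.7%). Mean CP10k was 0.562 in TSF and 1.01 in CM, 1.80-fold higher in CM, with a log2 ratio of -0.36. Within the cells that had a UMI it was 0.805 in TSF and 1.33 in CM. Eid3 overlaps Txnrd1 on the same strand, as Gm6061 does Gclm and Gm37692 and Gm37498 do Slc7a11, so counts from the shared stretches are uncertain.

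Srxn1 (ENSMUSG00000032802, chromosome 2, 152105516 to 152111376, plus strand) encodes sulfiredoxin, which repairs peroxiredoxins that peroxide has overoxidized. It was detected in 43 of 139 TSF cells (30.9%, 23.4 to 39.3%) and 10 of 29 CM cells (34.5%, 17.9 to 54.3%). Mean CP10k was 0.134 in TSF and 0.295 in CM, 2.19-fold higher in CM, although the shares were close, with a ratio of 0.897 (0.444 to 2.00). Much of the CM mean came from 3 cells of low depth. Without the 8 CM cells under 10000 UMIs, as described below, the CM level was 1.41-fold the TSF mean, whose shallow cells were kept.

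**Figure D3:**
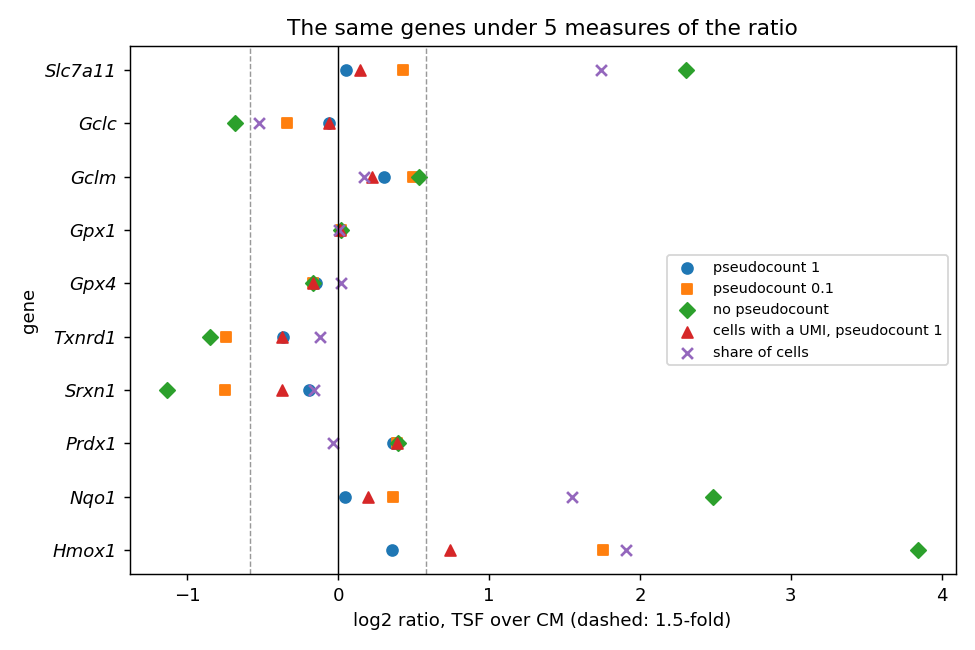
Log2 ratio of TSF over CM (x axis) of each gene under 5 measures: the mean with a pseudocount of 1 CP10k, with 0.1, with none, the mean within cells with a UMI with a pseudocount of 1, and the share of cells. The solid line marks equality and the dashed lines 1.5-fold. Gpx1 lies at most 0.021 from 0, Hmox1 ranges from 0.36 to 3.84, and Gclc, Srxn1 and Txnrd1 lie below 0 under all 5.

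The quinone and heme enzymes Nqo1 and Hmox1 were sparse and had higher means in the TSF library. Hmox1 (ENSMUSG00000005413, chromosome 8, 75093621 to 75100589, plus strand) encodes heme oxygenase 1, which breaks heme into biliverdin, iron and carbon monoxide and is induced by heme and oxidants. It was detected in 36 of 139 TSF cells (25.9%, 18.8 to 34.0%) and 2 of 29 CM cells (6.90%, 0.846 to 22.8%). Mean CP10k was 0.310 in TSF and 0.0216 in CM, a plain ratio of 14.3 and a log2 ratio of 0.36 with the pseudocount. The ratio of the shares was 3.76, with an interval of 0.967 to 32.2. That interval takes the cells with a UMI as Poisson counts and is wider than shares require. No conclusion is drawn from its holding 1. In cells with a UMI the mean was 1.20 CP10k in TSF and 0.314 in CM, the latter from 2 cells only.

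Nqo1 (ENSMUSG00000003849, chromosome 8, 107388225 to 107403206, minus strand) encodes a quinone reductase that is widely used as a readout of NRF2. It was detected in 14 of 139 TSF cells (10.1%, 5.62 to 16.3%) and 1 of 29 CM cells (3.45%, 0.0873 to 17.8%), with a mean CP10k of 0.0372 in TSF and 0.00666 in CM. The plain ratio was 5.58, the log2 ratio with the pseudocount 0.04, and the ratio of the shares 2.92 (0.444 to 124). As for Slc7a11, the CM level is that of a single cell.

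Heme oxygenase is also abundant in macrophages, and the macrophage markers summed to 0.0367 CP10k in TSF and 0.0200 in CM. Of the 8 markers, Adgre1, Lyz2, C1qa, C1qb, Marco and Csf1r were listed at 0 in both libraries, and Cd68 was the only one present in TSF, in 11 cells. The neutrophil markers summed to 1.03 CP10k in TSF and 0 in CM, with Csf3r in 7 TSF cells, S100a9 in 4, S100a8 and Retnlg in 2 each and Ly6g listed at 0, and 5 leukocyte markers summed to 0.171 and 0. All these values are those left after the authors' correction for free RNA, whose part in the values listed at 0 was not tested. The part of the marker genes in the Hmox1 difference was not tested. Erythroid markers were listed at 0 in TSF and summed to 0.0484 in CM, all of it from Hbb-bs. Alveolar type 2 markers summed to 0.0387 in TSF and 0.363 in CM, and endothelial markers to 0.163 and 0.0588.

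For the sparse genes the CM values were taken down to single UMIs. A CP10k is a whole number of UMIs divided by the depth of its cell, so the mean of few cells fixes which cells held the UMIs. For each of the 5 genes seen in at most 10 CM cells exactly 1 combination of the 29 recorded depths matched the deposited mean, to within 2e-14 of its value, when up to 3 UMIs a cell were allowed for Srxn1, up to 4 for Gclc and up to 6 for the others. The UMIs are those left after the authors' correction for free RNA. Slc7a11 had 1 UMI, in a cell of 35889 UMIs, and Nqo1 had 1, in the deepest cell, of 51807 UMIs. Hmox1 had 2, 1 each in cells of 27428 and 38024 UMIs. Gclc had 8 UMIs in 6 cells and Srxn1 had 15 in 10 cells.

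These counts give the CM level a counting error. Pooled over all 726849 UMIs of the CM cancer cells, Hmox1 came to 0.0275 UMIs per 10000 (95% exact Poisson interval 0.00333 to 0.0994), and the TSF mean of 0.310 lay above this interval. For the other 4 the TSF mean lay inside it: 0.000348 to 0.0767 for both Slc7a11 and Nqo1, 0.0475 to 0.217 for Gclc, and 0.116 to 0.340 for Srxn1. The TSF mean has an error of its own that the deposited values do not give, and it averages cells equally where the pooled value weights them by depth. The interval of Hmox1 rests on 2 UMIs and leaves out the spread between cells. The ratio of the Hmox1 shares had an interval that included equality, but that interval is wider than shares require and decides nothing. Hmox1 reached the 10% filter only through the TSF library.

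Cells of low depth carried much of the CM mean of Srxn1. Of its 15 UMIs, 4 came from 3 cells under 10000 UMIs and made up 53.4% of its mean CP10k. Without the 8 CM cells under 10000 UMIs, an alternative chosen after the data were seen, the CM mean over 21 cells was 0.190 in place of 0.295. None of the UMIs of Gclc, Hmox1, Slc7a11 or Nqo1 came from these shallow cells. Leaving those cells out moved the CM mean of Gclc to 0.174, 2.21-fold the TSF mean, and the plain ratio of Hmox1 to 10.4. The TSF cells of low depth could not be left out in the same way.

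**Figure D4:**
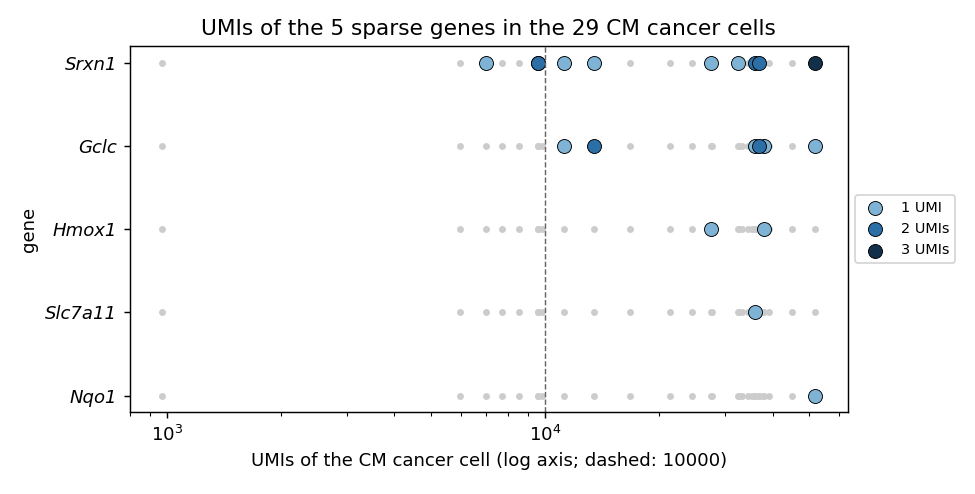
Depth of the 29 CM cancer cells (x axis, UMIs per cell, log scale) for each of the 5 sparse genes (rows); grey dots are cells with no UMI and filled circles cells with 1, 2 or 3 UMIs of the gene. Srxn1 has UMIs in 3 cells left of the dashed line at 10000 UMIs, of which those of 9583 and 9606 UMIs overlap in the plot, and the other genes have none there.

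Around the 10 genes, 7 lists of related genes held 58 genes, of which 53 passed the 10% filter. Of these, 21 were above 0 and 32 below, or 39.6% above 0 against 40.3% of all genes at that filter. Their median log2 ratio was -0.04, beside -0.03 over all genes at that filter. With the pseudocount, Fth1 passed 1.5-fold higher in TSF (1.89% of the 53, against 0.755% of the 10201 genes), and Slc3a2 and Txn2 passed it lower (3.77% against 1.95%). Intervals of the shares did not overlap for 3 of the 53: Glrx and Tfrc were higher in TSF (3.77% of the 53, against 1.14% of the 10201 genes) and G6pdx was lower (1.89% against 1.51%), all chosen here because of their values.

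NRF2 itself and its regulators lay mostly lower in TSF, with 7 of 8 genes below 0 and a median log2 ratio of -0.18, where 40.3% of all genes at the filter lay above 0. None of the 8 passed 1.5-fold with the pseudocount. On the plain ratio of means 5 of the 8 were over 1.5-fold lower in TSF and 0 higher, against 29.8% and 16% of all genes at the filter. Nfe2l2 had a mean CP10k of 0.905 in TSF and 1.5 in CM, a log2 ratio of -0.39, with shares of 79.1% and 82.8%. Keap1, the adaptor that holds NRF2 down, was the highest of the list and near equality, at 0.756 and 0.750 CP10k. Bach1, a repressor that occupies the same elements and restrains Hmox1, had 0.225 in TSF and 0.414 in CM, and was found in 39.6% of TSF cells (31.4 to 48.2%) and 62.1% of CM cells (42.3 to 79.3%), intervals that overlap. Sqstm1, the autophagy receptor p62 that binds KEAP1, was the lowest, at 5.13 and 7.73 CP10k.

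The glutathione list had 7 genes above 0 and 5 below, where 40.3% of all genes at the filter lay above 0. Slc3a2, the heavy chain that pairs with the Slc7a11 product, was its lowest, at 0.802 CP10k in TSF and 2.09 in CM with shares of 71.2% and 72.4%. Glrx, glutaredoxin, was its highest, at 0.909 and 0.520 CP10k, and was found in 76.3% of TSF cells (68.3 to 83.1%) and 48.3% of CM cells (29.4 to 67.5%). In the thioredoxin and peroxiredoxin list 3 genes were above 0 and 9 below. Txn1, the cytosolic thioredoxin that Txnrd1 reduces, had 9.53 CP10k in TSF and 8.40 in CM, while Txn2, the mitochondrial one, had 1.13 and 2.37. The other peroxiredoxins, Prdx2, Prdx3, Prdx4, Prdx5 and Prdx6, named to complete the family, were all below 0, with log2 ratios of -0.20, -0.41, -0.02, -0.41 and -0.50.

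Of the genes that remove superoxide and hydrogen peroxide, 3 were above 0 and 1 below. Beside this and the counts that follow, 40.3% of all genes at the filter lay above 0. Sod1, the cytosolic superoxide dismutase, had 0.899 CP10k in TSF and 0.531 in CM, and catalase (Cat) had 0.297 and 0.343. Heme and iron genes had 4 above and 2 below. Fth1, the ferritin heavy chain that stores iron such as that freed by heme oxygenase, was the highest of its list, at 134 CP10k in TSF and 83.1 in CM, a log2 ratio of 0.69. Blvra, which reduces the biliverdin that heme oxygenase makes, was lower in TSF, at 0.372 and 0.758. Tfrc, the transferrin receptor, was found in 45.3% of TSF cells (36.9 to 54.0%) and 17.2% of CM cells (5.85 to 35.8%). Among NADPH suppliers 2 were above 0 and 4 below. G6pdx, the first enzyme of the pentose phosphate pathway, was found in 35.3% of TSF cells (27.3 to 43.8%) and 65.5% of CM cells (45.7 to 82.1%), and Taldo1 of the same pathway was the highest, at 1.41 and 1.18 CP10k.

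**Figure D5:**
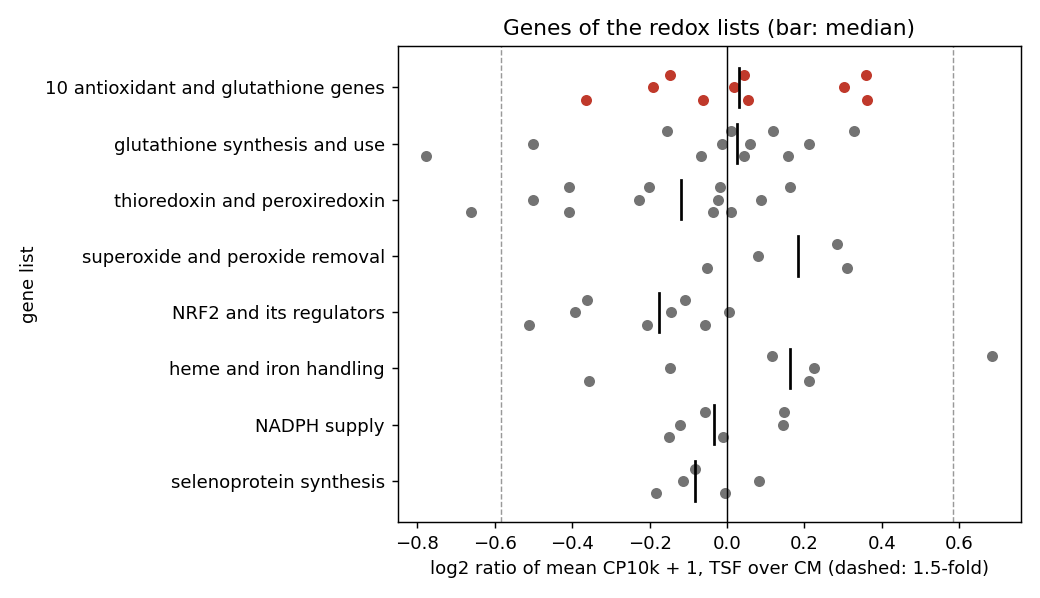
Log2 ratio of mean CP10k plus 1, TSF over CM (x axis), of the 10 antioxidant and glutathione genes (red) and of the genes of 7 related lists that passed the 10% filter (grey), with a bar for each median. The 10 genes spread from -0.36 to 0.36, and the medians of the lists run from -0.18 for NRF2 and its regulators to 0.18 for superoxide and peroxide removal.

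In the deposited gene sets too, genes lay on both sides of equality, as did all genes at the filter, of which 40.3% lay above 0. The Hallmark reactive oxygen species set, which holds 7 of the 10 genes, had 20 genes above 0 and 23 below among the 43 that passed the filter. Its lowest gene was Junb, an immediate-early transcription factor, with a log2 ratio of -1.05, and its highest was Ndufb4, a subunit of respiratory complex I, at 2.09 CP10k in TSF and 1.26 in CM. The KEGG glutathione metabolism set, which holds 4 of the 10, had 11 above and 16 below among 27, with Gclm the highest and Odc1, the ornithine decarboxylase of polyamine synthesis, the lowest at 2.86 and 5.11. The immediate-early and stress genes also differed between the libraries. All 7 that passed the filter were lower in TSF, with a median log2 ratio of -1.41, and Atf3, a stress-induced transcription factor, was at 2.73 CP10k in TSF and 17.5 in CM. Ribosomal protein genes took 23.9% of the summed CP10k in TSF and 18.6% in CM. The part of either in the levels of the antioxidant genes was not tested.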

How the data were processed

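Lung cells were captured with the 10x Genomics 5' v1.1 kit. According to the study's methods, Cell Ranger aligned the reads to GRCm38.p6 (mm10), to which the reporter CD90.1 had been added as a further chromosome, and the counts were imported with Seurat 4.1.0. UMI counts were corrected for free RNA with a customized SoupX, whose contamination fraction was raised and adapted to the depth of each cell. Cells with under 800 UMIs, under 200 genes or over 10% mitochondrial UMIs were removed, and cancer cells were recognized by clustering and CD90.1, with no doublet removal among them.

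The deposited gene table gives, for the cancer cells of each day 16 library, the number of cells with a UMI (counts), the percent of cells with a UMI and the mean CP10k. It also gives the authors' log2 fold change, p-value, q-value and ranking score, and another deposited table gives enrichment scores of gene sets. None of those columns was used. The deposited cell table gives UMI counts, genes and the percent of mitochondrial UMIs of each cell with the authors' cell type. It holds 2 further library names that match no sample described, and these were not used. No matrix of single cells was used, so mean CP10k has no error, the shares could not be thinned to equal depth, and the share of a gene in a cell type that should lack it was not analysed here.

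Ratios were computed from mean CP10k, with a pseudocount of 1 CP10k or with none, as TSF over CM. Shares have exact Clopper-Pearson intervals and UMI totals exact Poisson intervals, each at 95%. Ratios of shares have 95% conditional intervals that are exact for a ratio of Poisson counts. They leave out the cells without a UMI and are wider than ratios of shares require. With 1 library per group no p-value was computed. The background was all genes that reached 10% of the cancer cells in TSF or in CM. For the direction of the 10 genes, all genes with a UMI in any cancer cell were used as well. The UMIs of sparse genes in CM cells were found by an exhaustive search for whole counts whose CP10k values sum to the deposited mean. This search and the ratios were tested on simulated data. The simulated sums of the search held fewer cells than had UMIs of Gclc or Srxn1, so these larger searches were not tested. Coordinates came from GENCODE M21 on GRCm38, matched by gene identifier for 23749 of 23771 genes, and promoter windows from RefSeq on GRCm38.p6. Scripts ran in Python 3.11.15 with scipy 1.17.1, pandas 2.3.3 and numpy 2.4.6, and matplotlib 3.10.9 drew the plots.

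The 10 genes and all lists were chosen with earlier results of these data known. The genes named are the 10, the highest and lowest of each list, Nfe2l2, Keap1 and Bach1, and others said to be named for their values or to complete a family or marker list. Alternatives covered the pseudocount, the scaling without ribosomal protein or mitochondrial genes, centring on the median gene, the mean within cells with a UMI, the share of cells, the expression filter and the kind of interval.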

Additional observations from a re-analysis of the deposited data

How the results depend on the processing

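The number of genes above 0 was 6 of 10 under each of the 7 other measures, and Gpx4 and Prdx1 were the genes whose direction turned, both by the share of cells alone (log2 ratios 0.02 and -0.03). The counts past 1.5-fold depended on the pseudocount. None of the 10 was higher or lower with a pseudocount of 1, which the sparse genes could not pass at their levels. With 0.1 there was 1 higher and 2 lower, with none 3 and 3, within cells with a UMI 1 higher, and by the share of cells 3 higher. The percent of all genes past 1.5-fold was 2.71 at the 10% filter and 5.64 when the filter was 50% of cells. Scaling without ribosomal protein or mitochondrial genes and centring moved no count of the 10 genes. Of Wilson intervals the upper limits of the shares of the 10 genes were computed, and whether those intervals overlap was not tested. With 1 library per group no library could be left out. The comparison is limited by the single library of each group, in which differences between mice cannot be seen, and by the 29 CM cells. No paired analysis was possible because each group has 1 library and no test was made.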
